A study of Mus musculus with 12 samples.

Results

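AGO2 binding was examined at 10 genes of the translation machinery in mouse tibialis anterior (TA) muscle: the initiation factors Eif4g1, Eif4g2, Eif4g3, Eif4a1, Eif4a2 and Eif4ebp1, the nascent chain factor Naca, and the elongation factors Eef1a1, Eef1a2 and Eef2. Every listed peak that overlapped one of these genes on the same strand by at least 1 nt was taken, with no threshold on its values. Eif4g1 and Naca are among the targets that the study named, and the other genes were added as factors of the same process. The rule gave 1298 of the 713343 peaks in the 4 library lists, and each of the 10 genes had a listed peak in all 4 libraries. The annotation holds 55450 genes.

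The peaks came from chimeric eCLIP of AGO2, in which RNA crosslinked to the Argonaute protein that carries microRNAs is sequenced beside an input library of the same lysate. TA muscles of 6-month-old male wildtype (WT) mice, labelled C57BL/6, were compared with those of miR-486-/- (mir-486 KO) mice, labelled FVB N/J. The methods describe a CRISPR deletion of the microRNA hairpin and a later backcross onto C57BL/6J, and place both genotypes on that background. If the labels hold, genotype and strain cannot be told apart in these samples. Each genotype had 1 total AGO2 library in each of 2 library sets, called set 1 and set 2 here after the run prefix that their titles share, and the libraries amplified for miR-486 were not analysed here. Nothing in the labels says which animals gave which set or whether muscles were pooled, so the spread between 2 libraries may be technical.

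At the deleted locus the lists fitted the genotype labels. Peaks at Mir486 reached log2 6.62 over input in WT set 1 and 4.99 in WT set 2, and none was listed in either KO library. Read depths were not given in the files. The lists differed in length, from 92451 peaks in WT set 1 to 256219 in KO set 2, and in the median log2 fold over input of all listed peaks, which was 0.68 in WT set 1, 0.38 in KO set 1, 0.47 in WT set 2 and 0.45 in KO set 2. All 7 fast muscle markers were listed in all 4 libraries, as were 20 of the 24 marker genes checked. The slow myosin gene Myh7 had 53 and 51 listed peaks in the WT and KO libraries of set 1, and 1 and 0 in those of set 2. The part of this difference between sets in the results below was not tested.

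Translation initiation on capped mRNAs begins with the eIF4F complex. Its scaffold, eIF4G, holds the cap-binding protein eIF4E and the RNA helicase eIF4A, and the 4E-binding protein 4E-BP1 blocks the contact between eIF4E and eIF4G until mTORC1 phosphorylates it. During elongation eEF1A brings aminoacyl-tRNA to the ribosome and eEF2 moves the ribosome along the mRNA. Muscle fibres switch from eEF1A1 to its paralogue eEF1A2 after birth, and they make a long muscle form of the nascent polypeptide-associated complex subunit alpha, skNAC, from an extra exon of Naca. MicroRNAs guide AGO2 to mRNAs through their seed, positions 2 to 8 from the 5′ end.

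Peaks past a log2 fold of 3 and a −log10 p of 3 over input, called enriched below, were few. The 10 genes had 10 enriched peaks of 193 in WT set 1 (5.18%, 95% Wilson interval 2.84 to 9.27), 1 of 283 in KO set 1 (0.353%, 0.0624 to 1.97), 4 of 420 in WT set 2 (0.952%, 0.371 to 2.42) and 6 of 402 in KO set 2 (1.49%, 0.686 to 3.22). Over all listed peaks the share was 3.57% in WT set 1, 0.848% in KO set 1, 1.42% in WT set 2 and 1.23% in KO set 2, and each of these lay within the interval of the 10 genes. Intervals cover counting error only. The enriched peaks lay in Eif4g1, Eif4g2, Eif4g3, Eif4a2 and Naca, and the other 5 genes had none in any library. Of the 21 enriched peaks 19 lay in coding sequence and 2 in an intron of Eif4g3. Of all enriched peaks 46.0% lay in coding sequence in WT set 1, 11.02% in KO set 1, 29.2% in WT set 2 and 30.6% in KO set 2, and 30.4% to 35.4% lay in 3′ UTRs. Merged where they overlapped, they formed 13 sites, 12 of them coding, and each site had a listed peak in all 4 libraries. Sites that only adjoined were kept apart, and their lengths ran from 2 to 230 nt.

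At a log2 threshold of 1 the 10 genes had 41 peaks in WT set 1, 14 in KO set 1, 45 in WT set 2 and 41 in KO set 2. These were 21.2%, 4.95%, 10.7% and 10.2% of their listed peaks. The shares of all listed peaks were 7.14%, 1.99%, 5.37% and 4.72%, lower in each library. The −log10 p of a peak grows with its reads as well as its fold, and read counts were not given.

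The sequences shown are sites and peaks that held a seed word of 1 of 5 microRNA families that were looked for, picked after their values were seen to let the words be read in place. They include 4 of the 13 enriched sites. Among all enriched peaks a word of any of the 5 was held by 30.8% in WT set 1 and 23.9% in KO set 1. In WT set 2 the share was 33.7% and in KO set 2 32.3%. These are shares of unmerged peaks, so the 4 of 13 merged sites cannot be set against them. Of the 21 enriched peaks of the 10 genes 10 held a word, several of them pieces of the same site. The mature sequences came from RefSeq, with the seed in capitals.
miR-206-3p, which shares its seed with miR-1: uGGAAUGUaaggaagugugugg
miR-133b-3p: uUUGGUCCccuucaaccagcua
let-7a-5p: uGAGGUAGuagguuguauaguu
miR-29a-3p: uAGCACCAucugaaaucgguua
miR-30a-5p: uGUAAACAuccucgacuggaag
Their words in mRNA are ACATTCC for miR-206, GGACCAA for miR-133, CTACCTC for let-7, TGGTGCT for miR-29 and TGTTTAC for miR-30.

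The sites below were read from the GRCm38 genome on the gene's strand, with the word in capitals. The coding sequences are whole sites or peaks, and the 3′ UTR stretches hold the word with 11 nt on each side.
Eif4g3 coding site, chr4:138201917-138202009, plus strand: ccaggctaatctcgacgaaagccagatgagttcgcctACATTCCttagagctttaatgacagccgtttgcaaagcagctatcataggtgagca
Eif4g3 intron peak, chr4:138018849-138018993, plus strand: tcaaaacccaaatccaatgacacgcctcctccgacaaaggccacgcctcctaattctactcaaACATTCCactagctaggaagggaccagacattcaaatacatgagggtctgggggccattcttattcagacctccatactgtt
Eif4g2 coding site, chr7:111077226-111077330, minus strand: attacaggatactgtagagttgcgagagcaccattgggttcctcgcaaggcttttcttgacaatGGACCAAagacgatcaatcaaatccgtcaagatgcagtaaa
Eif4g1 coding site, chr16:20686513-20686573, plus strand: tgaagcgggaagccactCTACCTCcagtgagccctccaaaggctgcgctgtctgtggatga
Naca long-exon peak, chr10:128041707-128041760, plus strand: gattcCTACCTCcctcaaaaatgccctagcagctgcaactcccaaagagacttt
Eif4a1 3′ UTR word, chr11:69667087-69667115, minus strand: cctcatttgctGGACCAAatctacaggga
Eif4g2 3′ UTR word, chr7:111072197-111072225, minus strand: tgcctgtatttCTACCTCtagtaatgggc
An A, the base that can favour a seed match, followed the word at the Eif4g3 intron peak, the Eif4g2 coding site and the Eif4a1 site, and another base followed it at the other 4.

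Eif4g3, the third eIF4G paralogue (chr4:137993022-138208508, plus strand), held the only site of the 10 genes that was enriched in all 4 libraries. This coding site, with its miR-206 word, stood at log2 4.21 over input in WT set 1, 3.55 in KO set 1, 3.29 in WT set 2 and 3.08 in KO set 2. The WT and KO ranges overlapped, while within each set the WT value was the higher, by sign in 2 of 2 sets, for which the smallest exact two-sided p is 0.5. The values are those of the highest overlapping peak, and in WT set 2 the peak with the word itself stood at 3.20. The site spanned exon 32, which is 82 nt long, and ran 4 and 7 nt past its ends. A neighbouring peak over the next exon was enriched in WT set 2, at 3.05, and reached 2.81 in WT set 1, 2.34 in KO set 1 and 2.74 in KO set 2. In the intron the site with the other miR-206 word reached 3.63 in WT set 1, 2.38 in KO set 1, 2.87 in WT set 2 and 3.06 in KO set 2, with only the WT set 1 and KO set 2 values past both thresholds. In KO set 1 the intron peak that held the word stood at 2.26. Over the whole gene the median was 0.46 in WT set 1, 0.38 in KO set 1, 0.21 in WT set 2 and 0.24 in KO set 2. The gene is 215487 nt long, and its intronic peaks numbered 24 of 59 in WT set 1, 92 of 128 in KO set 1, 110 of 165 in WT set 2 and 101 of 151 in KO set 2.

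Eif4g2 encodes DAP5, a relative of eIF4G that lacks the eIF4E-binding part (chr7:111067750-111083030, minus strand). Its coding site with the miR-133 word reached 3.72 in WT set 1, 2.50 in KO set 1, 2.39 in WT set 2 and 3.16 in KO set 2. WT set 1 and KO set 2 were past both thresholds, so the genotypes overlapped. In KO set 1 and WT set 2 the peaks with the word itself stood at 2.22 and 2.23. The −log10 p of the highest peaks was 38.8 in WT set 1 and 9.95 in KO set 1. In WT set 2 it was 31.02 and in KO set 2 77.4. A 3′ UTR peak with a let-7 word was lower, at 1.595, 1.37, 0.46 and 0.51 in the same order. Across the gene the median was 1.08 in WT set 1, −0.094 in KO set 1, −0.21 in WT set 2 and −0.13 in KO set 2.

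Eif4g1 encodes the main eIF4G scaffold (chr16:20668313-20692884, plus strand). Its highest sites were a pair in WT set 1, at log2 3.56 and 3.63, and the second held a let-7 word. The first stood at 0.88 in KO set 1, 0.69 in WT set 2 and 0.76 in KO set 2, and the second at 0.54, 0.54 and 0.55, so the 3 other libraries lay together and WT set 1 stood alone. The gene median was 0.46 in WT set 1, −0.70 in KO set 1, −0.54 in WT set 2 and −0.28 in KO set 2. No Eif4g1 peak had a −log10 p of 3 or more outside WT set 1.

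**Figure D1:**
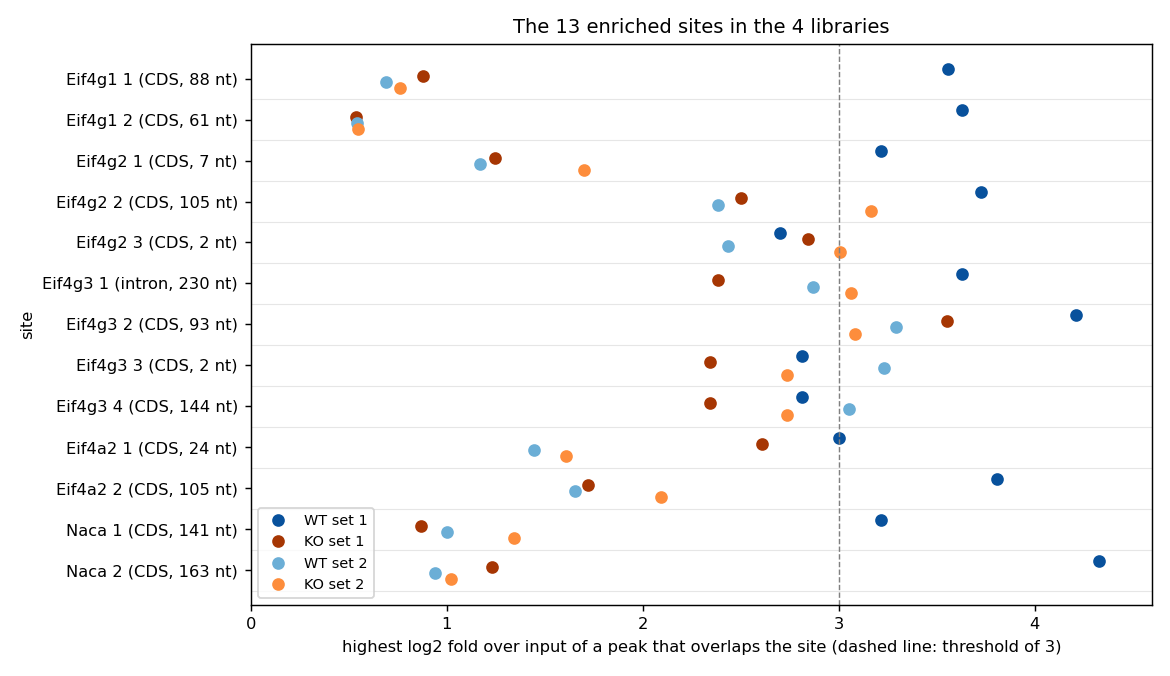
The 13 sites formed by merging enriched peaks of the 10 factors, with the highest log2 fold over input of an overlapping peak in each of the 4 libraries (x axis, dashed line at the threshold of 3). Sites of a gene are numbered along the chromosome. The second Eif4g3 site is past the threshold in all 4 libraries, from 3.08 to 4.21, while both Eif4g1 and both Naca sites pass it in WT set 1 only.

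The helicase genes differed in how many peaks they held. Eif4a2 (chr16:23107444-23114136, plus strand) had 14, 16, 34 and 32 listed peaks in WT set 1, KO set 1, WT set 2 and KO set 2, and Eif4a1 (chr11:69666936-69672423, minus strand) had 4, 7, 10 and 10. Both Eif4a2 sites were enriched in WT set 1 alone, the higher of them at 3.81 there and at 1.72 in KO set 1, 1.65 in WT set 2 and 2.10 in KO set 2. The other stood at 3.00, 2.61, 1.45 and 1.61. Eif4a1 had no enriched peak. A 3′ UTR peak of Eif4a1 with a miR-133 word reached 3.12 in WT set 1 with a −log10 p of 2.13, below the threshold, and 1.12 and 1.08 in WT set 2 and KO set 2 with −log10 p of 5.43 and 3.43. In KO set 1 no listed peak held the word, and one within 25 nt of it stood at 0.38 with a −log10 p of 0.

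Small nucleolar RNAs lie within both helicase genes and had some of the lowest folds. The 10 genes host 14 annotated small RNA genes on their own strand, 11 snoRNAs and 3 microRNAs, and 11 of the 14 overlapped a listed peak. None overlapped an enriched one. The highest peak at Snora81, which lies within Eif4a2 and overlaps the annotated microRNA gene Gm49346, stood at −4.14, −4.76, −5.18 and −5.13 in WT set 1, KO set 1, WT set 2 and KO set 2, far below input in every library. At Gm22988, a snoRNA in Eif4a1, the values were −4.35, −4.51, −2.36 and −2.51. Snord2 in Eif4a2 was the exception, at −1.96 and −0.98 in set 1 but 1.21 and 0.68 in set 2. Peaks of the 10 genes in noncoding exons had medians from −3.81 to −2.36, against 0.38 to 0.68 for all listed peaks in noncoding exons.

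Eif4ebp1, the gene of 4E-BP1 (chr8:27260329-27276674, plus strand), had only 4, 6, 10 and 8 listed peaks. Its median over input was 1.31 in WT set 1, 1.46 in WT set 2, 0.38 in KO set 1 and 0.90 in KO set 2, so both WT values lay above both KO values. No peak was enriched. The highest with a −log10 p of at least 3 were an intron peak at 2.53 in WT set 2 and a coding peak at 1.22 in KO set 2, and set 1 had none of that −log10 p.

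Naca had the highest median of the 10 genes in 3 of the 4 libraries (chr10:128035575-128048637, plus strand). Its peaks had a median of 1.98 in WT set 1, 0.70 in KO set 1, 1.07 in WT set 2 and 1.06 in KO set 2, and every Naca peak lay above input in every library. Most lay in the long coding exon of skNAC, chr10:128039171-128045086, which is 5916 nt long and makes up 86.9% of the exonic bases of the gene. The shares of peaks in it, 85.2% to 100%, had Wilson intervals that all held this value. The exon held 20 of 20 Naca peaks in WT set 1, 20 of 22 in KO set 1, 23 of 27 in WT set 2 and 25 of 28 in KO set 2. Peaks outside it, 0 to 4 per library, stayed at or below 0.72. Peaks covered 27.5% to 44.3% of the exon in a library, and 52.5% of it in any. The longest run without a peak was 685 nt.

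Within this exon the libraries did not share their highest peak. WT set 1 had enriched peaks at 128041185-128041325, at 3.21, and at 128044645-128044807, at 4.33, the highest value of any peak of the 10 genes. The first stood at 0.87 in KO set 1, 1.001 in WT set 2 and 1.34 in KO set 2, and the second at 1.23, 0.94 and 1.02. In set 2 the highest Naca peaks were at 2.43 in WT and 2.29 in KO. The WT peak held the let-7 word shown above, where the peaks that held the word stood at 1.99 in WT set 1, 1.16 in KO set 1 and 2.16 in KO set 2.

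**Figure D2:**
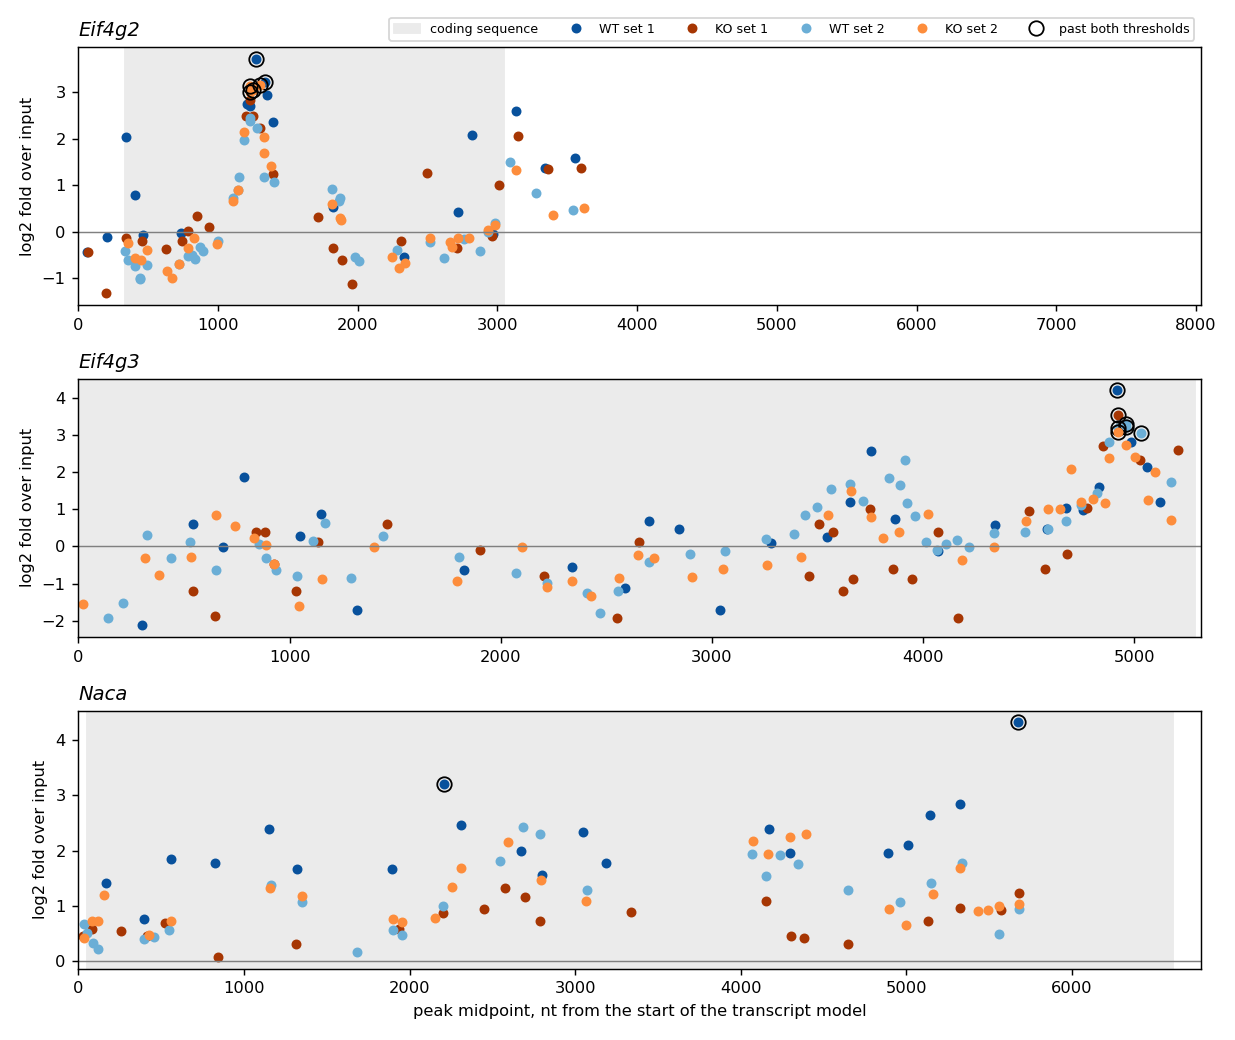
Listed peaks along transcript models of Eif4g2, Eif4g3 and Naca, by the distance of the peak midpoint from the transcript start (x axis, nt) and its log2 fold over input (y axis) in each of the 4 libraries. The coding sequence is shaded, the Eif4g3 model holds coding sequence only, and black circles mark peaks past both thresholds. The highest peaks lie in a short coding stretch in Eif4g2 and near the end of the coding sequence in Eif4g3, and Naca peaks lie along its long exon.

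The elongation factors had no enriched peak. Eef1a1 (chr9:78478449-78489151, minus strand) was the gene with all 4 medians below input, at −1.26 in WT set 1, −1.28 in KO set 1, −0.66 in WT set 2 and −0.86 in KO set 2, and its highest peak in any library, at 0.81 in WT set 1, overlapped the annotated microRNA gene Gm26377. Eef1a2, the muscle paralogue (chr2:181147653-181157014, minus strand), had its peaks over 76.7% to 89.2% of its exonic bases, the widest coverage of the 10 genes. Its median was 1.15 in WT set 1 and −0.88, −0.39 and −0.55 in KO set 1, WT set 2 and KO set 2. Its coding peak at 181149833-181149939 stood at 2.84 in WT set 1 with a −log10 p of 19.1. Eef2 (chr10:81176631-81182498, plus strand) ran the same way, at 0.75 in WT set 1 and −1.39, −0.91 and −0.74 in the others, with a highest WT set 1 peak of 2.71. In set 2 its highest peaks lay in the 3′ UTR, at 0.86 in WT and 1.48 in KO. The coding sequences of Eef1a1 and Eef1a2 were 80.1% identical over 1386 aligned nt, and those of Eif4a1 and Eif4a2 78.0% over 1218, so reads from identical runs cannot be assigned to either gene with certainty.

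**Figure D3:**
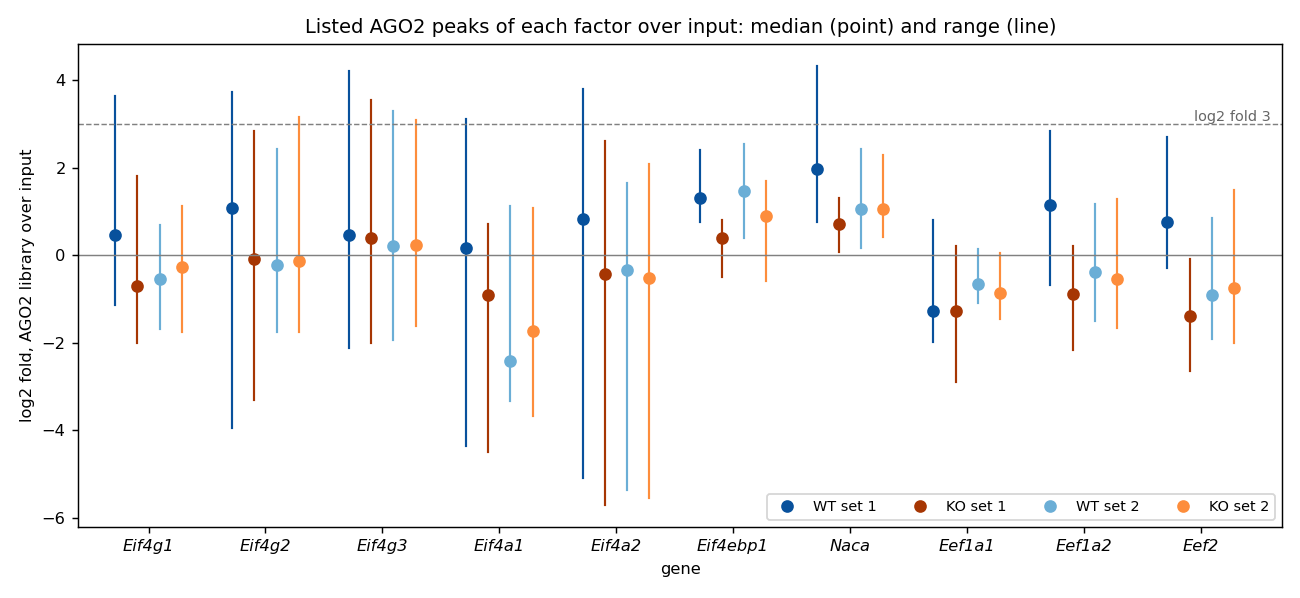
Median (point) and range (line) of the log2 fold over input of the listed peaks of each gene (x axis) in the 4 libraries, with the threshold of 3 dashed. WT set 1 has the highest median in 8 of the 10 genes.

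Coding sites lay beside each other in the spliced mRNA. Outside Naca, 10 coding sites in 4 genes fell into 4 stretches. These crossed exon junctions with a gap of 0 to 2 nt in the spliced coding sequence. Sites that adjoined were not merged, and some were short, at 2 and 7 nt in Eif4g2 and 2 nt in Eif4g3. Neighbouring sites cannot be told from pieces of the same bound stretch, so their number does not count separate binding sites. In Eif4g1 the stretch covered coding bases 3576 to 3722, across the junction of exons 23 and 24. In Eif4g2 it covered bases 896 to 1004, in exons 10 to 12. In Eif4g3 it covered bases 4879 to 5106, in exons 32 and 33. In Eif4a2 it covered bases 606 to 734, in exons 6 and 7. Bases were counted from the start codon of the transcript with the longest coding sequence.

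The Eif4g2 stretch held 3 to 6 listed peaks in each library with medians of 3.21 in WT set 1, 2.50 in KO set 1, 2.31 in WT set 2 and 3.02 in KO set 2. The other coding peaks of the gene had medians of 0.66, −0.11, −0.41 and −0.22. The highest of them stood at 2.94, 2.50, 1.97 and 2.14. In each library this was above the lowest peak of the stretch, at 2.70, 2.22, 1.17 and 1.70. The Eif4g3 stretch had medians of 2.81, 2.95, 3.20 and 2.39, and its other coding peaks 0.46, −0.15, 0.14 and −0.025. The highest of these others stood at 2.57, 2.71, 2.33 and 2.09, and the lowest peak of the stretch at 2.15, 2.34, 2.82 and 1.27. These stretches were chosen from the highest peaks of the same libraries, so the contrast is a description with no test. The Eif4g1 stretch was chosen from WT set 1 alone. Its peaks in the libraries that did not choose it had medians of 0.71 in KO set 1, 0.55 in WT set 2 and 0.70 in KO set 2, against −0.80, −0.59 and −0.35 for the other coding peaks, and in KO set 1 and WT set 2 its lowest peak, at 0.54, was above the highest other coding peak, at 0.20 and 0.45. In KO set 2 another coding peak, at 1.12, was above all peaks of the stretch, which reached 0.76. The Eif4a2 stretch was also chosen from WT set 1 alone. Its medians in KO set 1, WT set 2 and KO set 2 were 1.72, 1.36 and 1.80, the first from 1 peak. The other coding peaks had medians of −0.39, −0.22 and −0.47, and the highest of them stood at 2.61, 1.06 and 0.68. Peaks were assigned by midpoint, and the KO set 1 peak at 2.61 overlapped the stretch, so it is not a peak elsewhere in the gene.

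Where peaks lie in transcripts was 1 of the questions of the study. Coding sequence held 64.8% ± 5.09 of the listed peaks of the 10 genes in WT and 54.9% ± 8.19 in KO (SD, n = 2 libraries each). For all listed peaks it was 46.0% ± 8.18 and 37.6% ± 3.00. The 3′ UTR share was 6.41% ± 2.66 in WT and 6.20% ± 1.73 in KO, against 15.8% ± 5.03 and 14.9% ± 4.84 for all peaks. Introns held 21.2% ± 10.1 in WT and 30.4% ± 6.02 in KO, against 31.5% ± 14.4 and 41.3% ± 2.54 for all peaks. The WT and KO ranges of the coding share did not overlap, but they nearly met in set 2, at 61.2% in WT and 60.7% in KO. With 2 libraries each an exact test cannot give a p below 0.333.

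**Figure D4:**
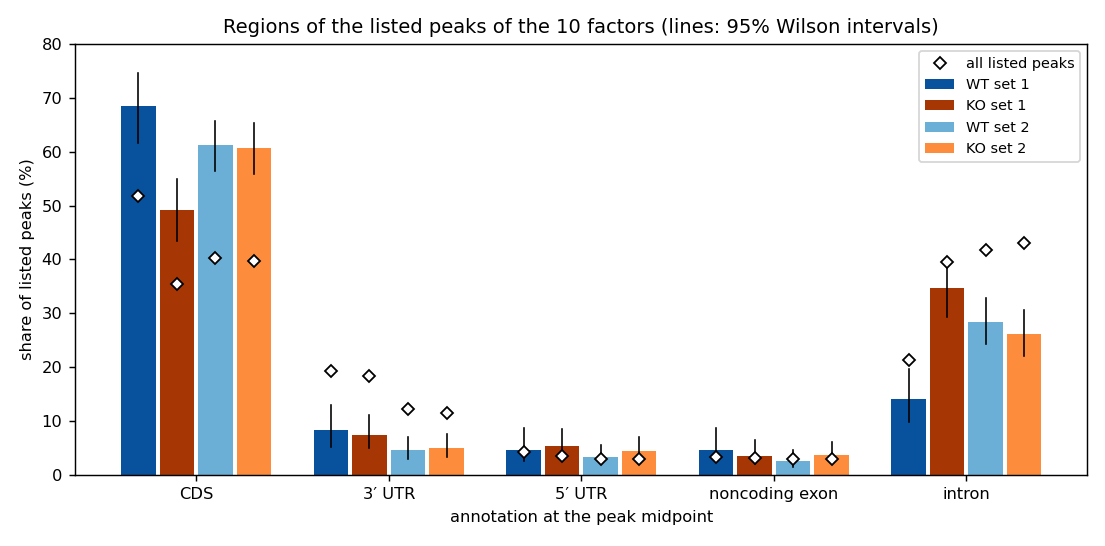
Share of the listed peaks of the 10 factors (y axis, percent) by the annotation at the peak midpoint, in the 4 libraries, with 95% Wilson intervals as lines and the share of all listed peaks as diamonds. Bars stand above the diamonds for coding sequence and below them for 3′ UTR in every library.

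Seed words were looked for in every listed peak of the 10 genes with 25 nt added on each side. They were found at 33 positions, 22 of them in introns, 8 in coding sequence and 3 in 3′ UTRs, and 19 of the intronic positions were in Eif4g3. For miR-206 the share of listed peaks with the word was 2.07%, 1.06%, 1.19% and 0.995% in WT set 1, KO set 1, WT set 2 and KO set 2, against 4.81%, 3.08%, 3.32% and 3.00% of all listed peaks. For miR-133 it was 1.04%, 1.77%, 1.19% and 0.995%, against 2.45%, 1.78%, 2.08% and 1.99%. For let-7 the 4 values were 2.07%, 2.12%, 1.43% and 0.995%, against 2.34%, 1.56%, 1.65% and 1.46%. The miR-29 word was in 3 to 7 peaks of a library, with 2.07% to 3.03% of all listed peaks holding it, and the miR-30 word in 0 or 1, against 1.27% to 1.66%. No enriched peak of the 10 genes held either, and of all enriched peaks 3.45% to 6.04% held the first and 2.07% to 3.84% the second. Of the 21 enriched peaks 10 held a word, all at the 4 sites printed for Eif4g1, Eif4g2 and Eif4g3. Per library they were 4 of 10 in WT set 1, 1 of 1 in KO set 1, 1 of 4 in WT set 2 and 4 of 6 in KO set 2, to be read against the shares of all enriched peaks given above. A match is a run of letters and not a measured microRNA, and these 21 peaks include several fragments of the same site.

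The study used eCLIP to find transcripts bound with miR-486, and the total AGO2 libraries also allow WT to be set against KO. Over the 10 genes together the median log2 fold over input was 0.81 in WT set 1, 0.068 in KO set 1, −0.083 in WT set 2 and −0.025 in KO set 2. The WT mean was 0.37 ± 0.63 and the KO mean 0.021 ± 0.066 (SD, n = 2 libraries each), and an exact two-sided permutation test over the 4 libraries gave p = 1. The difference between genotypes was 0.75 in set 1 and −0.057 in set 2, so it rested on WT set 1. Each of the 10 genes had the higher median in WT in set 1, and 5 of them did in set 2. Over all listed peaks the WT median was above that of KO by 0.30 in set 1 and 0.022 in set 2. The sign was that of the 10 genes together in set 1 and the opposite in set 2. Both WT medians of all listed peaks were above both KO medians (p = 0.333, exact permutation test). Both WT medians were above both KO medians for Eif4a2, Eif4ebp1, Naca and Eef1a2, with p = 0.333 for each by the exact permutation test, the smallest p that 2 against 2 allow. The share of all genes with medians apart in this way was not computed. For Eif4a2, Naca and Eef1a2 the set 2 difference was 0.17, 0.0097 and 0.15, against 1.26, 1.27 and 2.03 in set 1. For Eif4ebp1 it was 0.56 in set 2 and 0.92 in set 1, from 4 to 10 peaks per library. In the direct comparison of set 2, described next, its medians were 0.20 in WT over KO and 0.34 in KO over WT. With exon midpoints these direct medians were −0.38 and 0.39. Direct medians of set 1, WT over KO first, were 0.50 and −0.69 for Eif4a2 and 0.099 and 0.29 for Naca. For Eef1a2 they were 0.27 and −0.46. In set 2 they were −0.049 and −0.034 for Eif4a2, −0.021 and 0.011 for Naca and −0.022 and −0.051 for Eef1a2.

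The files also hold peaks compared directly between the genotypes, with WT over KO given at WT peaks and KO over WT at KO peaks. None of the peaks of the 10 genes passed a log2 fold of 3 and a −log10 p of 3 in any of these 4 lists. They numbered 193, 283, 419 and 401 peaks, and a count of 0 allows shares of up to 1.55%, 1.06%, 0.716% and 0.748%. Of all listed peaks 0.469% passed in the WT over KO list of set 1, 0.179% in the KO over WT list of set 1, 0.0192% in the WT over KO list of set 2 and 0.0144% in the KO over WT list of set 2, and each share lies below what a count of 0 allows. With these background shares fewer than 1 passing peak (0.91 in the WT over KO list of set 1) would fall on the 10 genes. The study describes its targets, Eif4g1 and Naca among them, as found in cDNA amplified for miR-486, and those libraries were not analysed here.

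With the threshold lowered to a log2 fold of 1, the WT over KO list of set 1 held 22 peaks of 7 of the 10 genes (11.4%, against 4.85% of all listed peaks). Eef2 had 6 of them, Eif4g1 4, Eif4g2 4, Eif4g3 3, Eif4a2 2, Eef1a2 2 and Eif4ebp1 1. None of the 22 passed the same threshold in set 2. The 4 Eif4g1 peaks ran from 1.08 to 1.59 in set 1, and the overlapping WT over KO peaks of set 2 stood at −0.43 to 0.027. The KO over WT list of set 1 held 2 peaks (0.707%, against 0.755% of all listed peaks), both in the long exon of Naca, at 1.38 and 1.22. The overlapping peak of set 2 stood at −0.44. The WT over KO list of set 2 held 2 peaks (0.477%, against 0.403%), both in Eef1a1, at 1.002 in its 3′ UTR and 1.31 in its coding sequence. The first overlapped a set 1 peak at 0.60. The KO over WT list of set 2 held none, against 0.144% of all listed peaks.

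At each enriched coding site the highest WT over KO value was higher in set 1 than in set 2. The Eif4g3 intron site ran the other way, at −0.21 in set 1 and 0.23 in set 2. The Eif4g3 coding site stood at 1.30 in WT over KO of set 1 and 0.39 in set 2. Its KO over WT values were −1.34 and −0.15, so WT was above KO in both sets. The Eif4g2 coding site stood at 1.49 in WT over KO of set 1 and −0.46 in set 2, with −1.49 and 0.54 in the KO over WT lists, so it turned around between sets. The Eif4g1 site with the let-7 word went from 1.59 to −0.29. The highest Naca site stood at 0.58 in set 1 and −0.021 in set 2.

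Each direct list was made at peaks called in the genotype named first, and the median of all its peaks was positive. In set 1 it was 0.74 with WT first and 0.72 with KO first, and in set 2 it was 0.30 and 0.27. The peaks of the 10 genes had medians of 0.50, 0.26, 0.027 and 0.069 in the same lists, below the list median in each. In set 1 the lists gave WT above KO for 7 of the 10 genes by sign, and none the other way. The sign means a positive WT over KO and a negative KO over WT median. In set 2 the lists gave WT above KO for 2, Eif4a1 and Eef1a1, and 4 ran the other way, Eif4g1, Eif4g2, Naca and Eef2. The peaks of 52 other translation factors had the same signs in set 1, with medians of 0.80 and −0.16, and 0.11 and 0.0036 in set 2. The share of all genes with these signs was not computed. Eif4a1 was the gene with WT above KO in both sets, at 0.89 and −0.93 in set 1 and 0.20 and −0.034 in set 2, from 4 to 10 peaks per list. The KO over WT median of all Eif4g3 peaks in set 1, 1.43, was the most frequent value of that list. It was held by 25484 peaks of the list and 22 peaks of the 10 genes.

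**Figure D5:**
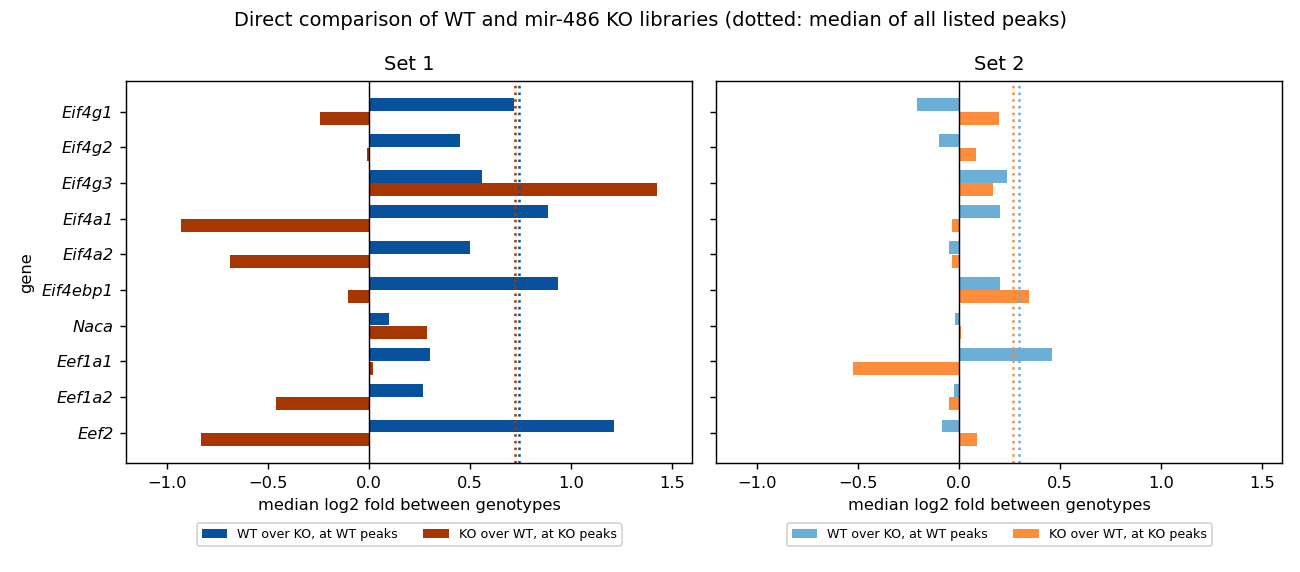
Median log2 fold of each gene in the direct lists of set 1 (left) and set 2 (right), with WT over KO at WT peaks and KO over WT at KO peaks as bars and the median of all listed peaks dotted. In set 1 the WT over KO bars are positive for all 10 genes, from 0.099 to 1.21, and in set 2 they lie between −0.21 and 0.46.

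The other 52 translation factors that were checked held 18 enriched peaks in WT set 1 (3.70%), 6 in KO set 1 (1.2%), 14 in WT set 2 (1.6%) and 7 in KO set 2 (0.787%), against the background shares given above. Enriched peaks were found for 13, 2, 6 and 3 of the genes, and 36 of the 52 had none in any library. Pabpc1, the poly(A)-binding protein that joins eIF4G at the mRNA ends, was enriched in 3 libraries. Eif2b3, a subunit of the eIF2 exchange factor, was enriched in all 4, with 3 peaks in each that were pieces of the same 25-nt intronic run, chr4:117041901-117041925, at log2 10.54 to 11.03. The run, gattttccccccTCAACCAGCTgtc, shares the 10 bases in capitals with miR-133b-3p. These bases are in the same sense as the microRNA and not its complement, so they are not a seed word. Whether the Eif2b3 peaks hold reads of the microRNA itself was not tested. In WT over KO of set 1, peaks of Eif2b5 and Eif3b passed both thresholds, at 3.48 and 3.16. The overlapping peaks of set 2 stood at 0.12 and 0.058.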

How the data were processed

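The members and lists were chosen with earlier results of these data known. Per the study's methods and processing notes, the authors trimmed reads with cutadapt, aligned them with STAR to GRCm38, called peaks with CLIPper in each AGO2 library and compared reads at each peak with input or with the other genotype. The deposited lists hold, per peak, a log2 fold and a −log10 p, written up to 400 and as 0 for every fold below 0. Replicates were not pooled. Normalization of the direct lists is not given in the sources used here. Peaks were called per library, so which peaks are listed depends on its depth, which is unknown.

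Here peaks were assigned to GENCODE M21 genes where they shared a minimum of 1 nt with the gene, strand included (the notes name M24). Regions were read at the midpoint, coding sequence first. Seed words pair with positions 2 to 8. Named were all 10 genes, their highest peaks, recurrent sites and sites past the thresholds. The text names other sites and log2 1 counts after their values were seen. Enriched means log2 and −log10 p of at least 3. Means ± SD and an exact permutation test over 4 libraries were computed with Python 3.11.15, pandas 2.3.3 and scipy 1.17.1. Overlap, region and word functions were tested on simulated data. Matches to miR-486 are not reported here. Alternatives were other thresholds, exon midpoints, merged peaks, other region and word rules and each set alone.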

Additional observations from a re-analysis of the deposited data

Results flagged for a closer look

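In the direct lists Eif4g1, Eif4g2 and Eef2 ran 1 way in set 1 and the other way in set 2, by both lists of each set. The WT over KO and KO over WT medians of Eif4g1 stood at 0.72 and −0.24 for set 1 but at −0.21 and 0.20 for set 2. For Eif4g2 set 1 gave 0.45 and −0.011, while set 2 gave −0.099 and 0.083. For Eef2 set 1 gave 1.21 and −0.83, while set 2 gave −0.083 and 0.092. Each set holds 1 library per genotype, so this difference between sets was not tested.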

How the results depend on the processing

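Paired by library set, with an exact sign-flip test whose smallest p for 2 sets is 0.5, the WT minus KO difference over input stayed 0.34 (p = 1). By the same exact test single genes gave p = 0.5 for Eif4a2, Eif4ebp1, Naca, Eef1a1 and Eef1a2 and p = 1 for the other 5. The pairing rests on the run prefix in the titles. Of 157 alternatives 111 were labelled the same, 29 moved and 17 reversed. Counts had to stay within 1.5 times, overlap shares within their Wilson interval and other values within the SD. The WT minus KO differences over input were labelled by sign alone, so a much smaller difference still counted as the same. That of Naca was 0.64 with both sets and 0.0097 with set 2 alone. Enriched peaks per library averaged 7 in WT and 3.5 in KO. With a log2 threshold of 1 they were 43 and 27.5, with 4 they were 1 and 0, and each set alone gave 4 to 10 and 1 to 6. Direct peaks numbered 0 per list except at a log2 threshold of 1, when the lists with WT first averaged 12 and those with KO first 1. The WT minus KO difference of medians over input was −0.057 to 0.75 with a set left out. The WT over KO median of 0.26 became −0.26 after subtracting the list median. The KO over WT median of 0.16 became −0.11 with exon midpoints, −0.063 with each gene counted once, −0.33 after subtracting the list median and −0.46 at enriched peaks.

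The coding share in WT was 82.5% with exon midpoints, 58.8% with 3′ UTR first and 95% for enriched peaks. In KO it was 78.6% with exon midpoints and 91.7% for enriched peaks. The enriched shares are means over libraries, of 9 of 10 and 4 of 4 peaks in WT and 1 of 1 and 5 of 6 in KO. Of all enriched peaks 11.02% to 46.0% lay in coding sequence. Of enriched WT peaks 35.7% (5 of 14) overlapped an enriched peak in another library. The share was 74.4% at a log2 threshold of 1, 0% at 4 and 10% to 50% with a set left out. In KO the share was 85.7% (6 of 7 peaks, some of them pieces of the same Eif4g2 site), rising to 98.2% with log2 1. With a set left out it was 16.7% (1 of 6) to 100% (1 of 1), and no KO peak passed log2 4. These counts are too small to set KO against WT, and the share over all enriched peaks was not computed. Peaks with any seed word made up 6.62% in WT and 5.54% in KO. With a 6-nt word they were 15.7% and 14.3%, without extension 4.61% and 3.26%, and among enriched peaks 32.5% and 83.3%. These are means over libraries, and the 83.3% comes from 1 of 1 peak in KO set 1 and 4 of 6 in KO set 2. Of all enriched peaks 23.9% to 33.7% held a word. With 50 nt added the KO share was 7.55%. The Eif4g3 coding site passed log2 4 in 1 library.
Without Eif2b3, the other factors had 3.5 enriched KO peaks per library in place of 6.5.

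With each set alone the WT minus KO difference over input ran from −0.26 to 1.16 for Eif4g1, −0.080 to 1.17 for Eif4g2, −0.027 to 0.075 for Eif4g3, −0.68 to 1.06 for Eif4a1 and −0.17 to 2.14 for Eef2. The WT over KO median ran from −0.21 to 0.72 for Eif4g1, −0.099 to 0.45 for Eif4g2, −0.049 to 0.50 for Eif4a2, −0.021 to 0.099 for Naca, −0.022 to 0.27 for Eef1a2 and −0.083 to 1.21 for Eef2. The lower value is set 2 in each. The cause was not tested. Matches to miR-486 were not run. The paired test and the alternatives for single genes, the Eif4g3 site and Eif2b3 were chosen after seeing the data. Depth is unknown, and lists of set 1 are shorter than those of set 2.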

Other observations

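Fold values repeat within a list. The most frequent value, 0.46 in WT set 1 and 0.38 in KO set 1, was held by 18.9% and 24.9% of all listed peaks and by 16 and 20 peaks of the 10 genes, and the equal medians of Eif4g1 and Eif4g3 in WT set 1 are this value. In set 2 the most frequent values, 1.06 in WT and 0.82 in KO, were held by 9.93% and 10.5% of all peaks.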
